A study of Mus musculus with 12 samples.

Results

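SCC31 is 1 of 5 mouse lines whose tumours were profiled by single-cell RNA sequencing in a study of melanoma rejection, and the study's sample table lists it as a rejected line. The 1758 cells described here are the immune cells of SCC31 tumours of day 6 and day 10 (the labels do not say from what event days are counted), out of 2316 cells assigned to those tumours, 16654 immune cells of tumours in all and 57643 assigned cells in the whole series. A cell was kept with at least 300 genes and at most 15% mitochondrial counts. It was assigned to a tumour by its leading hashtag, an antibody-bound barcode that marks the tumour of origin, given a minimum of 10 counts for that hashtag and a ratio of 2 or more to the runner-up. An immune cell held at least 2 UMIs (unique molecular identifiers, one per captured RNA molecule) of Ptprc, Tyrobp, Laptm5, Cd3e and Cd3g together. T cells were immune cells with at least 2 UMIs of Cd3e, Cd3d and Cd3g together (452 cells). Myeloid cells were immune cells with at least 1 UMI each of Tyrobp and Lyz2 (634 cells). The members were thus selected on the measured UMI counts of these genes, whose levels are given only as a description.

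Both groups carried the same SCC31 tumour cells, and the labels used here give no treatment, mouse strain or age for either day. Each tumour came from a mouse of its own. Live cells had been sorted from dissociated tumours, so no immune gate was applied. The SCC31 cells came from a pair of libraries: a library of SCC31 alone, with tumours 1 and 2 of each day, and a mix library, with tumour 3 of each day beside tumours of SCC35 and SCC40. Whether rejection had run its course in any of these tumours is not given in the labels.

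T cells recognise peptides on MHC molecules and, once activated, release granzymes and cytokines such as interferon gamma. Monocytes and macrophages answer interferons through STAT and IRF factors, which switch on guanylate-binding proteins, RNA and DNA sensors, chemokines such as Cxcl9 and Cxcl10, MHC genes and the checkpoint ligand Cd274 (PD-L1). A set of interferon-induced genes can therefore be read in immune cells of any type, whereas cytotoxic genes are read in lymphocytes.

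The barcodes that separated the SCC31 tumours were these 15-base hashtag sequences, shown because every comparison of the days rests on them.
Day 6, tumour 1: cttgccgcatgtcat
Day 6, tumour 2: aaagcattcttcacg
Day 6, tumour 3: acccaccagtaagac
Day 10, tumour 1: ctttgtctttgtgag
Day 10, tumour 2: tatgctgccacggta
Day 10, tumour 3: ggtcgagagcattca
In the immune cells of the 5 tumours used, the median count of the leading hashtag was 663 (day 10 tumour 1) to 4619 (day 10 tumour 3), and that of the next hashtag was 16.5 to 55.

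The tumours were very unequal in size. At day 6, tumours 1, 2 and 3 gave 30, 20 and 1021 immune cells. At day 10, tumour 1 gave 65, tumour 2 gave 2 and was left out, and tumour 3 gave 620. The SCC31 library was shallow, with 2366 barcodes and 5691826 gene UMIs against 11181 barcodes and 83426651 UMIs in the mix library, and the median immune cell held 1002 to 1216 UMIs in it against 1813 (day 6) and 2468 (day 10) in the mix library. The 2 libraries shared 41 barcode sequences (1.73% of those of the SCC31 library), none of them among the SCC31 cells of days 6 and 10. With a minimum of 20 cells per tumour and class, T cells and myeloid cells each left 1 tumour per day, tumour 3, whereas all immune cells other than T cells left 3 tumours at day 6 and 2 at day 10. The last class was added after the data were seen. In the tests of T cells and of myeloid cells below, the spread between tumours was therefore estimated from the tumours of the other lines, and the single SCC31 tumours are assumed to vary like them.

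The thresholds cut through a graded range. In tumour 3, 105 cells of day 6 and 52 of day 10 held 1 UMI of the immune genes and stayed outside, while 112 and 47 held 2 and were inside. Among immune cells, 32 of day 6 and 46 of day 10 held 1 UMI of the Cd3 genes, and 20 and 47 held 2.

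T cells made up a larger share of the SCC31 immune cells in both tumours of day 10 than in any tumour of day 6. At day 6 they were 3.33% of 30 immune cells in tumour 1, 0 of 20 in tumour 2 (which allows a share of up to 15%) and 7.54% of 1021 in tumour 3. At day 10 they were 23.1% of 65 in tumour 1 and 57.9% of 620 in tumour 3. The groups did not overlap, and the means were 3.63% ± 3.78 (SD, n = 3) and 40.5% ± 24.6 (SD, n = 2). The difference of 36.9 percentage points had a two-sided exact permutation p of 0.2, which is the smallest that 3 tumours against 2 can give. In the tumours of the mix library alone the exact 95% binomial intervals, which cover counting error only, were 5.997% to 9.34% at day 6 and 53.9% to 61.8% at day 10. The tumours of the mix library had deeper cells at day 10, and a Cd3 threshold passes more deep cells. With each cell thinned to 500 UMIs, which left 1 tumour of day 6 and 2 of day 10, the difference was 18.4 percentage points.

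**Figure D1:**
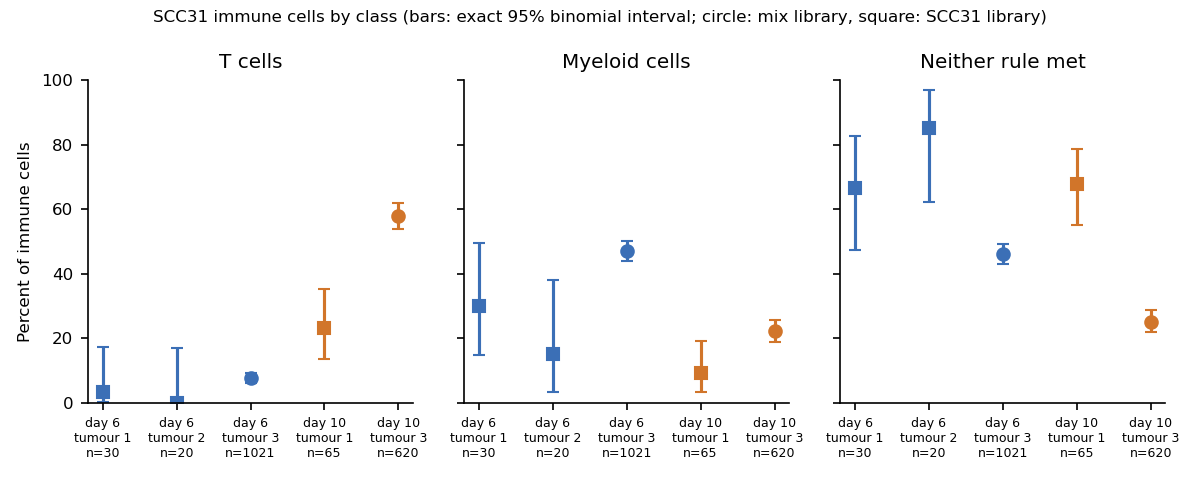
Share of the immune cells of each SCC31 tumour (y axis, percent) that met the T cell rule, the myeloid rule or neither, with exact 95% binomial intervals; blue is day 6, orange is day 10, circles are the mix library and squares the SCC31 library. Both day 10 tumours lie above all 3 day 6 tumours for T cells (23.1% and 57.9% against 0% to 7.54%), while the other 2 classes overlap between the days.

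A higher share at day 10 was present in rejected and non-rejected lines. In SCC40, the other rejected line, T cells were 8.29% to 14.4% of immune cells in 3 tumours of day 6 and 53.9% to 56.9% in 3 of day 10. Among the non-rejected lines they were 10.8% and 14.8%, then 44.9% and 49.5%, in SCC32 (2 tumours a day), 5.49% and 6.97%, then 16.5% and 19.7%, in SCC37 (2 tumours a day), and 4.85% to 5.23%, then 5.42% to 10.6%, in SCC35 (3 tumours a day). The difference between lines was not tested.

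The shares of myeloid cells and of all immune cells overlapped between the tumours of the days. Myeloid cells were 30% (tumour 1), 15% (tumour 2) and 46.9% (tumour 3) of immune cells at day 6 and 9.23% and 22.1% at day 10, which overlap. Their means were 30.6% ± 15.97 (SD, n = 3) and 15.7% ± 9.10 (SD, n = 2). The exact permutation p was 0.4, and 0.2 is the smallest that 3 tumours against 2 can give. The overlap was between tumour 2 of day 6 (20 immune cells) and tumour 3 of day 10, from different libraries. In the SCC31 library the share was 30% and 15%, then 9.23%. In the mix library it was 46.9%, then 22.1%, so within each library it was lower at day 10. Immune cells were 48.3% ± 31.2 of assigned cells at day 6 and 59.7% ± 30.0 at day 10 (exact permutation p 0.6). They were 84.0% and 80.9% in the 2 tumours of the mix library and 26.3% to 38.5% in those of the SCC31 library, so the share differed more between the libraries than between the days. Cells of neither rule were 45.9% to 85% of immune cells at day 6 and 25.2% and 67.7% at day 10.

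Markers that the class rules did not use were compared between the classes of tumour 3. The 10 such T cell markers, among them Trac, Lck and Thy1, were all detected in both classes and summed to 1744 CPM (a gene's counts scaled by all gene UMIs of the class in that tumour) at day 6 and 1898 CPM at day 10 in T cells, against 41.9 and 782 CPM in myeloid cells. The 11 such myeloid markers summed to 7159 and 5145 CPM in myeloid cells against 771 and 580 CPM in T cells. Myeloid cells of day 10 had the higher sum of T cell markers. Cells that met both rules, which hold Cd3 UMIs by definition, were 4 of 479 myeloid cells at day 6 and 32 of 137 at day 10. Without those cells the 6 T cell markers still tested all kept a change above 0 (median log2 change 2.92). Scrublet, which scores likely doublets, called 7.93% and 7.30% of the myeloid cells of the 2 tumours.

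In myeloid cells of tumour 3, interferon-stimulated genes were lower at day 10. Of the 43 genes of that list that were tested, 11 fell and 0 rose, against 27 genes called lower (0.278%) and 29 called higher (0.299%) of the 9699 genes tested with edgeR's quasi-likelihood test at an adjusted p of at most 0.05. The fitted change was below 0 for 42 of the 43, with a median of -1.19 on the log2 scale beside -0.03 over all genes tested, of which 51.9% were below and 47.6% above 0. Reads of the Ifi, Ifit, Gbp and Slfn genes can be split or lost between near-identical copies of each family.

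The guanylate-binding proteins Gbp2, Gbp4 and Gbp5, GTPases that attack membranes of pathogens inside cells, all fell. Gbp2 went from 1106 CPM (1584 counts) at day 6 to 320 CPM (179 counts) at day 10, a log2 change of -1.75 ± 0.40 (SE; edgeR adjusted p 0.0394). Gbp5 went from 114 to 17.9 CPM, a log2 change of -2.63 ± 0.45 (edgeR adjusted p 0.00682), and Gbp4 from 174 to 35.8 CPM. The share of myeloid cells with a UMI moved the same way, from 85.0% of 479 cells to 49.6% of 137 for Gbp2, although the median cell was deeper at day 10 (2809 UMIs against 2011).

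Regulators and sensors of the antiviral response fell with them. Irf7, the factor that amplifies type I interferon, went from 516 to 147 CPM, a log2 change of -1.77 ± 0.40 (edgeR adjusted p 0.0316), and from 69.1% to 31.4% of cells with a UMI. Rsad2 (viperin, an antiviral enzyme) went from 452 to 84.2 CPM, Zbp1, a sensor of unusual nucleic acids, from 445 to 154 CPM, and Irgm1, an immunity-related GTPase, from 304 to 73.4 CPM. The log2 changes of these 3 genes were -2.38, -1.49 and -2.01. The DNA-sensor relative Ifi213 (log2 change -2.21), the Schlafen genes Slfn1 and Slfn5 (-2.33 and -1.68) and Ifi47 (-1.75) were also called. Isg15, a ubiquitin-like protein, went from 1603 to 571 CPM without passing the threshold (log2 change -1.45, edgeR adjusted p 0.123).

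The 16 other genes called lower were not on the list. Ifi205, a relative of Ifi213, went from 280 to 62.7 CPM (log2 change -2.12). Cd274, which encodes PD-L1, went from 309 to 77.0 CPM with a log2 change of -1.96 ± 0.38 (edgeR adjusted p 0.0112), and from 51.6% to 21.2% of cells with a UMI. Tgm2 (transglutaminase 2) went from 572 to 140 CPM, Slc30a1 (a zinc exporter) from 104 to 21.5 CPM, Daxx (a transcriptional corepressor) from 147 to 35.8 CPM, Parp12 (an ADP-ribosyltransferase) from 57.9 to 14.3 CPM and Themis2 (a signalling adaptor) from 63.5 to 10.7 CPM.

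**Figure D2:**
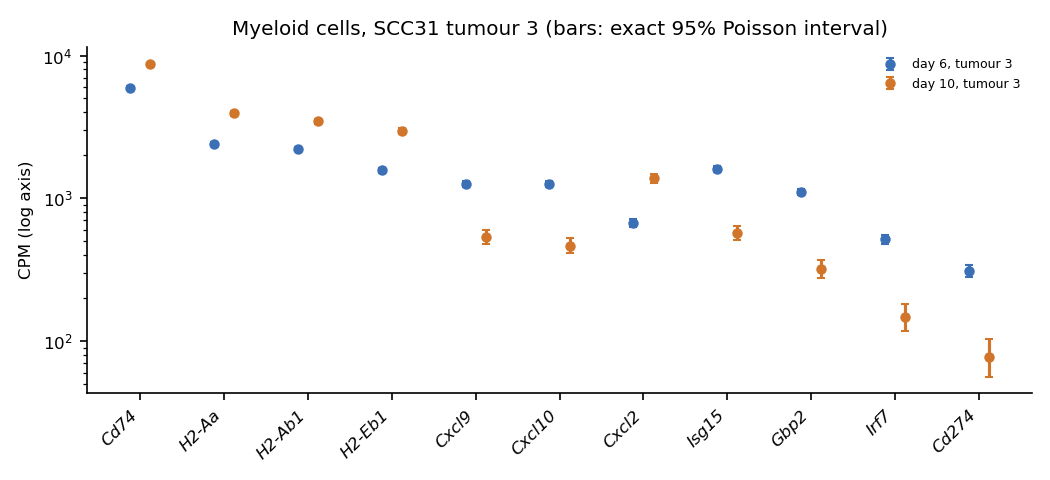
CPM (y axis, log scale) of 11 genes in the myeloid cells of SCC31 tumour 3 at day 6 (blue, 479 cells) and day 10 (orange, 137 cells), with exact 95% Poisson intervals that cover counting error only. Isg15, Gbp2, Irf7, Cd274, Cxcl9 and Cxcl10 are lower at day 10, and the 4 MHC class II genes on the left and Cxcl2 are higher, of which Gbp2, Irf7 and Cd274 passed the test.

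The calls did not survive the removal of the cells that met both class rules. The genes called lower kept most of their size (median log2 change -1.97, and -1.79 without those cells, over 27 genes), while the genes called higher shrank (4.02 and 2.77 over the 23 of 29 still tested). Without those cells 0 of 9369 genes were called (0%) by edgeR, with a smallest adjusted p of 0.139 and 595 genes at an unadjusted p under 0.05. DESeq2 was not run on that subset. All 50 of the 56 called genes that were still tested kept their direction. The interferon-stimulated list kept 42 of 43 changes below 0 and a median of -1.17, beside -0.04 over all genes. Gbp2, Gbp5, Irf7 and Cd274 then had log2 changes of -1.68, -2.47, -1.79 and -1.80. Without the cells Scrublet called, 99 genes were called, 79 of them lower, and 26 of the 27 lower genes were among them.

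**Figure D3:**
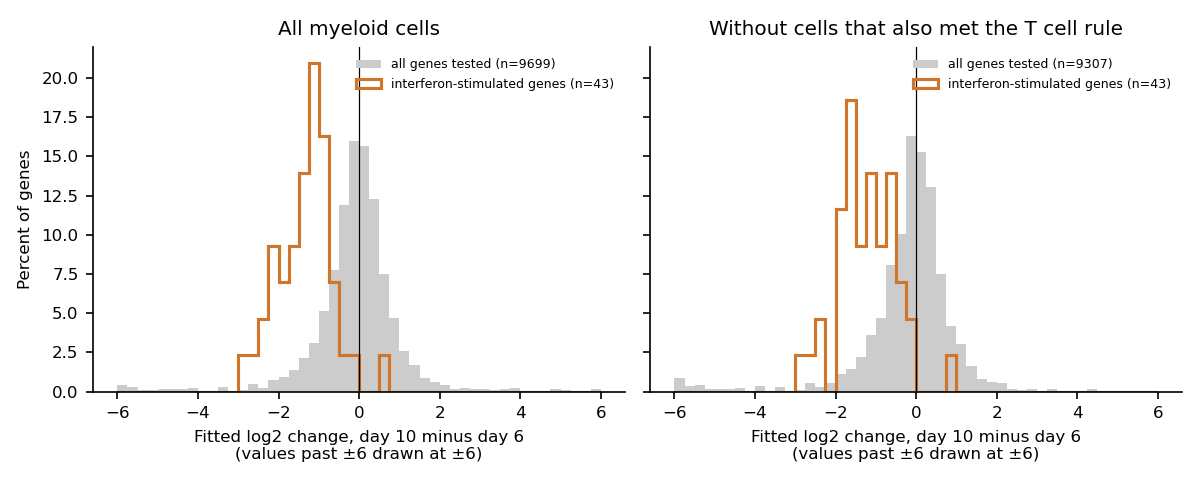
Fitted log2 changes, day 10 minus day 6, in myeloid cells (x axis) as a percent of genes (y axis), for all genes tested (grey) and the 43 interferon-stimulated genes (orange), with all myeloid cells (left) and without the cells that also met the T cell rule (right, genes tested in both fits). In both panels 42 of the 43 listed genes lie to the left of 0, with medians of -1.19 and -1.17.

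T cell markers were among the genes called higher in myeloid cells. Of the 10 markers that the class rules did not use, 6 rose and 0 fell: Trac (3.49 to 111 CPM), Lck (7.68 to 93.1 CPM), Thy1 (5.58 to 183 CPM), Trbc2, Cd2 and Themis. The rule genes Cd3d, Cd3e and Cd3g are among the 29 genes counted as higher above and are not read as results. By the rule for named genes, Ptprcap, which binds the CD45 phosphatase, went from 7.68 to 125 CPM, the lymphoid transcription factor Ets1 from 30.0 to 156 CPM, Spn (CD43) from 18.1 to 71.6 CPM, Fam107b from 46.1 to 166 CPM and Dgat1, an enzyme of triglyceride synthesis, from 50.2 to 152 CPM. The share of day 10 myeloid cells with a Cd3d UMI was 20.4% against 1.46% at day 6.

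MHC genes, which present antigen to T cells, were not called in either direction. Of 14 class II genes tested, 0 rose and 0 fell, with 7 changes above and 7 below 0 (median 0.10). Without the cells that met both class rules 10 were above and 4 below 0 (median 0.66). The class II genes of highest CPM were Cd74, the invariant chain (5961 and 8654 CPM), H2-Aa (log2 change 0.75), H2-Ab1 (0.68) and H2-Eb1 (0.97), each above 0 without a call. Of 20 MHC class I genes 0 were called, and B2m, the light chain of class I, stood at -0.25 and H2-K1 at 0.31 on the log2 scale.

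The remaining myeloid lists gave few calls. Of 21 chemokine genes 0 were called. Cxcl9 and Cxcl10, which draw CXCR3-bearing T cells, went from 1260 to 535 CPM and from 1266 to 466 CPM (log2 changes -1.19 and -1.40, edgeR adjusted p 0.569 and 0.122), and Cxcl2, a neutrophil attractant, from 669 to 1384 CPM (log2 change 1.09, edgeR adjusted p 0.519). Of 24 monocyte genes Spn rose and 0 fell (median -0.46), and Plac8 and Ifitm3 went from 3061 to 1064 CPM and from 4207 to 1812 CPM without a call. Of 31 inflammatory cytokine and suppressive ligand genes Cd274 fell and 0 rose (median -0.68). Of 33 complement, lipid and scavenger genes 0 were called (median 0.16, and 0.40 without the cells that met both class rules), with Spp1, which encodes osteopontin, at a log2 change of -1.45. The share of myeloid cells with an Spp1 UMI was 44.9% at day 6 and 43.1% at day 10. Of 19 genes of arginine, nitric oxide and oxidative metabolism 0 were called (median 0.04), and 0 of 25 glycolysis and hypoxia genes (median 0), 0 of 22 dissociation and stress genes (median -0.04) and 0 of 30 proliferation genes (median 0.61, and -0.07 without the cells that met both rules).

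The class of all immune cells other than T cells let the same genes be read in 5 tumours. In it 24 genes were called lower (0.234%) and 10 higher (0.0973%) of 10274 tested, and 10 of 43 interferon-stimulated genes fell while 0 rose. The fitted change was below 0 for 42 of the 43 (median -1.31, beside 0.03 over all genes). For 27 of the 43 both day 10 tumours lay below all 3 day 6 tumours, against 4.46% of all genes tested, and for 0 they lay above, against 9.77%. Only genes with a count in all 3 day 6 tumours could be scored as below, and tumour 2 of day 6 held 23808 UMIs. The 4.46% thus includes genes too rare to be scored so and is not matched to the list by expression level. Since tumour 3 is a part of this class as of the myeloid one, and 15 of the 24 lower genes were also called lower in myeloid cells, the 2 results are not independent.

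Irf7 showed the pattern in each tumour. It reached 424, 462 and 416 CPM in tumours 1, 2 and 3 at day 6 (21, 11 and 1152 counts) and 77.0 and 86.2 CPM in tumours 1 and 3 at day 10 (6 and 62 counts). Both day 10 values lay below all 3 day 6 values, also within each library, and the log2 change was -2.18 ± 0.39 (SE; edgeR adjusted p 0.00801). Irgm1 reached 141, 252 and 238 CPM at day 6 and 51.4 and 52.9 CPM at day 10 (log2 change -1.94). Gbp2 reached 303, 840 and 840 CPM at day 6 and 77.0 and 224 CPM at day 10 (log2 change -1.76). For both genes, too, every day 10 tumour lay below every day 6 tumour.

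Several genes had no count in the shallow tumour 1 of day 10. Ifit2 had 20.2, 126 and 121 CPM at day 6 and 0 and 13.9 CPM at day 10. Ifi213 had 40.4, 84.0 and 65.0 CPM and then 0 and 8.35 CPM, Slfn1 60.6, 168 and 105 CPM and then 0 and 23.6 CPM, and Dhx58, which encodes the RNA sensor LGP2, 40.4, 42.0 and 44.0 CPM and then 0 and 4.17 CPM. These 0 values rest on 77870 UMIs in 50 cells, where 3 counts equal 38.5 CPM, so a lower level could have been missed.

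The other genes named by the rule were Slfn4, Tgm2, Hk3 (a hexokinase of myeloid cells), Slfn5, Ms4a4c and Rnf213 (an E3 ubiquitin ligase), with log2 changes of -2.81, -2.07, -1.87, -1.87, -1.83 and -1.82. Cd274 reached 222, 252 and 277 CPM at day 6 and 12.8 and 89.0 CPM at day 10 (log2 change -1.71, edgeR adjusted p 0.0348). Ifi47 and Zbp1 were called as well, with log2 changes of -1.70 and -1.69. Gbp5 was called (log2 change -1.67), but its tumours overlapped, with 60.6, 84.0 and 92.1 CPM at day 6 and 64.2 and 19.5 CPM at day 10.

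**Figure D4:**
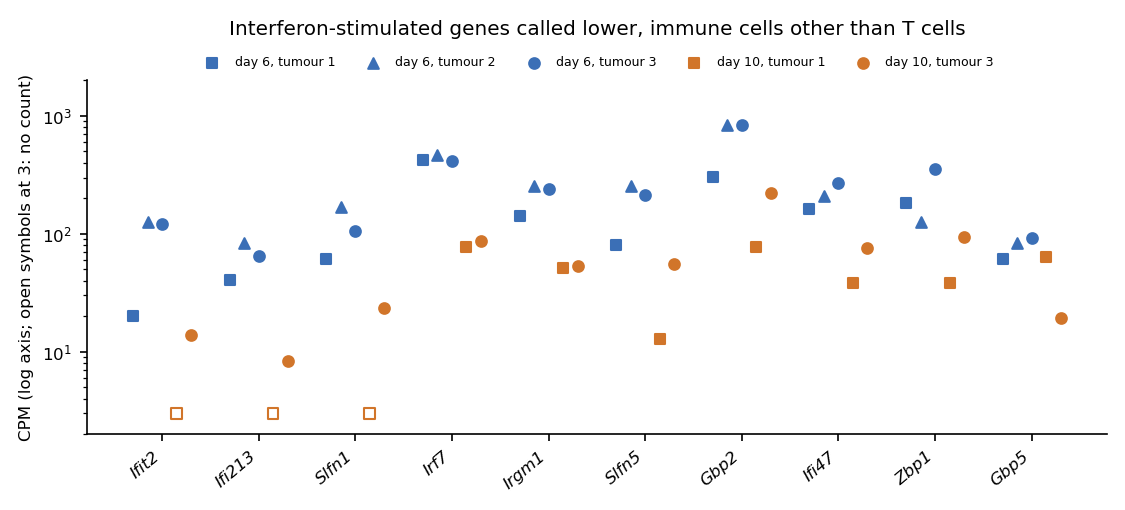
CPM (y axis, log scale) of the 10 interferon-stimulated genes called lower in immune cells other than T cells, in each SCC31 tumour (blue day 6, orange day 10; squares, triangles and circles are tumours 1, 2 and 3). Day 10 tumours lie below all day 6 tumours for every gene shown except Gbp5, and open symbols drawn at 3 had no count.

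The makeup of this class moved with the day and with the tumour. Summed over markers that the class rules did not use, myeloid markers were 2949, 2604 and 5456 CPM at day 6 and 925 and 3743 CPM at day 10, while T cell markers were 889, 210 and 164 CPM and then 1246 and 501 CPM, and NK markers 505, 168 and 1011 CPM and then 77.0 and 1109 CPM. Fibroblast markers (8 of 10 detected, with Fap and Acta2 at 0) reached 6665 CPM in tumour 1 of day 10 against 0 to 254 CPM in the other 4 tumours. The part of these differences in the result was not tested, and in the class as a whole fewer cells of a type and less RNA per cell cannot be told apart. The number of calls depended on which tumours were used: 5 genes (3 lower) were called without tumour 1 of day 10, 70 (40 lower) without tumour 3 of day 10, 196 (7 lower) without tumour 3 of day 6, 44 (27 lower) without tumour 1 of day 6 and 40 (31 lower) without tumour 2 of day 6. In the 2 fits without a tumour 3 the median over all genes tested itself moved to -0.69 and 1.03 on the log2 scale. Without the mix library, 4 genes were called, 0 of them lower. DESeq2 called 60 genes, 49 of them lower, and gave no adjusted p for 7976 of the 10274 genes.

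Genes called higher in this class again included genes of T cells, Trac, Cd8b1, Lat, Cxcr6 and Rora. Cd3e, which the class rule limits, is counted among the 10 higher genes and is not read as a result. Rora, a nuclear receptor, reached 40.4, 42.0 and 16.6 CPM at day 6 and 116 and 104 CPM at day 10 (log2 change 2.61). Gimap3, a GTPase of lymphocytes, rose from 20.2, 0 and 18.1 CPM to 89.9 and 91.8 CPM (log2 change 2.42). By the rule for named genes B4galnt1, which makes gangliosides, reached 80.8, 84.0 and 48.4 CPM and then 103 and 125 CPM (log2 change 1.27).

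The promoters of the genes that fell are shown because interferon-activated factors of the IRF and STAT families bind recognisable letters there. A motif of 2 GAAA runs with any 2 bases between them was searched on both strands in the 250 bases before each gene's start in RefSeq sequences of the build GRCm38.p6. It was present in 21 of the 33 interferon-stimulated genes matched by symbol (63.6%), in 7 of 21 matched genes called lower in myeloid cells (33.3%), in 6 of 20 called lower in immune cells other than T cells (30%) and in 0 of 19 called higher in myeloid cells. Over all 27025 genes with a sequence it was present in 3.46%. The motif TTCNNNGAA, which reads the same on both strands, was present in 27.3%, 14.3%, 15% and 21.1% of the same sets and in 8.13% of all. The stretches below give 70 bases around a match, in the direction of the gene, with that match in capitals. A run of TTTC is the motif read on the opposite strand. In the Irgm1 stretch a further match starts within the capitals and runs on into the lower-case letters.
Gbp2, chr3:142620574-142620643, + strand, match 59 bases before the start: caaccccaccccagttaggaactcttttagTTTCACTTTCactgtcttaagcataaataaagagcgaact
Gbp5, chr3:142496739-142496808, + strand, match 165 bases before the start: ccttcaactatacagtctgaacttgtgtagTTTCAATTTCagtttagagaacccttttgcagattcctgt
Irgm1, chr11:48871421-48871490, - strand, match 30 bases before the start: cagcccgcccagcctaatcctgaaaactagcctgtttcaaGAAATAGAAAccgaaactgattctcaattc
Slfn5, chr11:82951917-82951986, + strand, match 155 bases before the start: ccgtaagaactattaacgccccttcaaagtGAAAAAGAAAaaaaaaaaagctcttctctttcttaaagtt
Ifi213, chr1:173599306-173599375, - strand, match 73 bases before the start: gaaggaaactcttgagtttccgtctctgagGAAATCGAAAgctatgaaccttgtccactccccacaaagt
Rsad2, chr12:26456533-26456602, - strand, match 120 bases before the start: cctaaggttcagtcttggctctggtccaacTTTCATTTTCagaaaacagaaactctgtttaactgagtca
A match is a description of letters and does not show that a factor binds there. The motif was not found in the Irf7 window, which says only that these letters are not in it.

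No gene was called as changing differently in SCC31. Summed over the interferon-stimulated list, myeloid cells of tumour 3 went from 18300 to 8346 CPM in SCC31, from 18610 to 11730 CPM in SCC40 and from 11610 to 9793 CPM in SCC35, all in the mix library. The test of the SCC31 change against the mean change of the other 4 lines called 0 of 9699 genes (0%) in myeloid cells by edgeR, with 536 at an unadjusted p under 0.05 and 0 called by DESeq2. In T cells it called 0 of 7756 (0%) by edgeR, with 226 at an unadjusted p under 0.05 and 0 by DESeq2. Summed over the same list, T cells of tumour 3 went from 9002 to 5670 CPM in SCC31. They went from 9648 to 11100 CPM in SCC40 and from 6049 to 12330 CPM in SCC35, where the T cells were few (23 and 41). The fall in myeloid cells was thus not shown to be particular to SCC31. The 13 myeloid class markers, rule genes included, went from 1226 to 2265 CPM in T cells of SCC40 and from 998 to 4246 CPM in SCC35. In T cells of SCC31 they stood at 1099 and 918 CPM. For T cells, neither a difference between lines in the summed list nor the part of myeloid RNA in it was tested.

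In T cells of tumour 3 no gene passed the test between the days. Of 7756 genes, 0 were called higher and 0 lower (0% each) by edgeR, with 237 at an unadjusted p under 0.05 and a smallest adjusted p of 0.0759, and DESeq2 called 0. The 77 T cells of day 6 gave 387672 UMIs and the 359 of day 10 gave 1853105. The 5 T cells with the most UMIs held 38.1% of the class at day 6 and 10.0% at day 10, so summed values of day 6 lean on few cells.

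Interferon-stimulated genes stood lower in T cells of SCC31 tumour 3 too, without a call. In SCC40 and SCC35 the summed list rose, and so did the myeloid markers of the T cell class. Of the 43 tested in SCC31, 36 were below 0, with a median of -0.81 beside 0.01 over all genes, of which 49.1% were below 0. Ifi27l2a, the list's gene of highest CPM, went from 2652 to 1115 CPM (log2 change -1.25), Isg15 from 658 to 298 CPM (-1.14) and Bst2, which tethers virions, from 743 to 472 CPM (-0.66), whereas Ly6e stood at 712 and 836 CPM (0.23). Isg15 had a UMI in 72.7% of 77 T cells at day 6 and in 35.1% of 359 at day 10, although the median T cell was deeper at day 10 (3028 UMIs against 2354). None of these 4 changes passed the test (edgeR adjusted p 1 each).

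The lymphokine genes had the lowest list median, and for Il2, Ccl1, Lta and Ccl3 most day 6 counts lay in 1 cell each. The chemokine Ccl5 had a UMI in 38 of 77 T cells at day 6, with 18.2% of its counts in 1 cell. Of 19 lymphocyte chemokine and cytokine genes tested, 13 were below 0 (median -1.25) and 0 were called. Ccl4, a chemokine, went from 833 CPM (323 counts) to 93.4 CPM (173 counts), a log2 change of -3.16 ± 1.21 (edgeR adjusted p 1). At day 6 a single cell, which Scrublet called, held 158 of the 323 Ccl4 counts (48.9%), and the share of T cells with a Ccl4 UMI was 14.3% at day 6 and 14.2% at day 10. Another cell held 80 of the 104 Ccl1 counts (76.9%), 27 of the 35 Lta counts and 127 of the 304 Ifng counts. Il2, the T cell growth factor, had 30 counts at day 6, 27 of them in the cell that held most Ccl4, and 0 at day 10, which makes it at least 47.8-fold lower against a floor of 3 counts in the library of day 10. The Il2 counts of day 6 came from only 2 of 77 cells, and 0 of 359 cells at day 10 allows a share of up to 0.836%.

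For Ifng the CPM and the share of cells moved in opposite directions. Its CPM went from 784 to 329 (log2 change -1.25), while the share of T cells with a UMI went from 19.5% to 37.9%. The cell with the most counts held 41.8% of them at day 6 and 16.2% at day 10. No order of the days is read from a share that goes against the CPM, and part of the rise in the share can come from the deeper cells of day 10. Without the filter on low counts 14 genes were called, 10 of them lower: Ccl1, Ccl3, Ccl4, Xcl1, Il2, Lta, Klra1, Itgae, Gpnmb and Gzmb. One cell held 76.9%, 54.5%, 48.9%, 35%, 90%, 77.1% and 94.7% of the day 6 counts of the first 7. The 4 higher genes were Crabp1, Ccl8, Ccl2 and Ccl22. Crabp1, Ccl8 and Ccl22 had 0 counts at day 6, which allows up to 9.5 CPM (exact 95% Poisson bound), and 88.5, 79.3 and 37.2 CPM at day 10. Ccl2 went from 43.9 to 244 CPM. The part of single cells, or of RNA from other cell types, in these higher genes was not tested. These 14 genes were named after their values were seen.

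**Figure D5:**
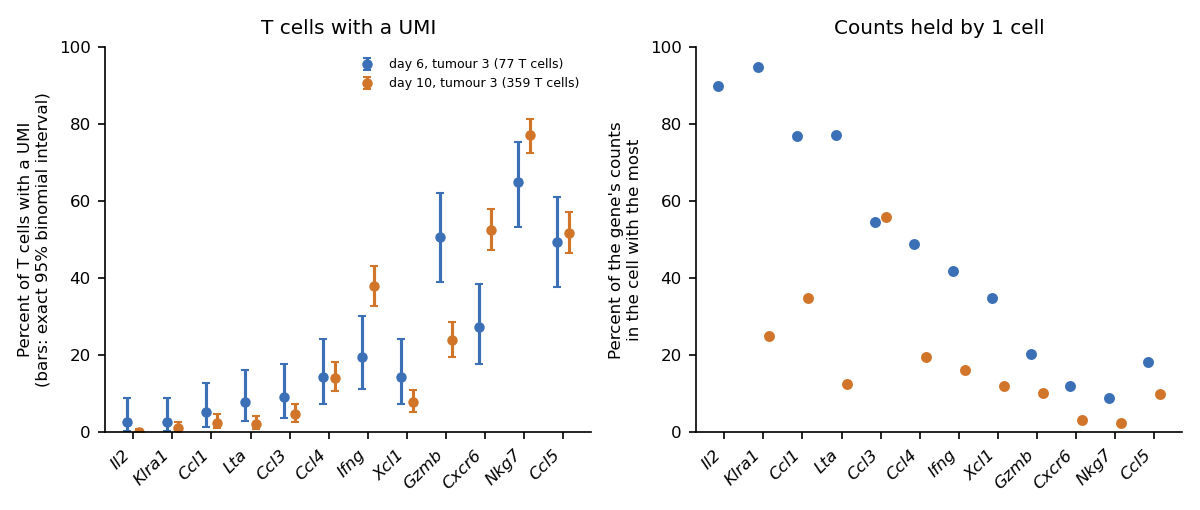
Left, percent of T cells of SCC31 tumour 3 with a UMI of each gene, with exact 95% binomial intervals (blue day 6, 77 cells; orange day 10, 359 cells); right, percent of each gene's counts that lay in the 1 cell with the most. For Il2, Klra1, Ccl1 and Lta over 3 in 4 counts of day 6 came from 1 cell, whereas Gzmb and Cxcr6 were spread over many cells on both days.

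For Gzmb and Cxcr6 the share of cells moved with the CPM in tumour 3. Gzmb, the granule protease granzyme B, went from 720 to 199 CPM (log2 change -1.85 ± 0.56, edgeR adjusted p 1) and from 50.6% of cells with a UMI (95% interval 39.0% to 62.2%) to 24.0% (19.6% to 28.7%). The 15 T cells of day 10 tumour 1 held 14 Gzmb counts, or 720 CPM, the level of day 6 tumour 3, so the day 10 tumours did not both lie below it. Cxcr6, a receptor of tissue-resident T cells, went from 85.1 to 242 CPM (a log2 change of 1.501 ± 0.70, edgeR adjusted p 1) and from 27.3% (17.7% to 38.6%) to 52.6% (47.3% to 57.9%) of cells, with 154 CPM (3 counts) in day 10 tumour 1. The intervals cover counting error in these 2 tumours only. As a whole the 21 cytotoxic genes tested were even, with 11 above and 10 below 0 (median 0.04), and Nkg7, a granule membrane protein, stood at 720 and 739 CPM. Ccl5 stood at 1050 and 1065 CPM.

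Receptor and memory lists were centred near 0 with 0 calls each. Of 24 activation and inhibitory receptors 11 were above and 13 below 0 (median -0.13), with Il2rb at 511 and 435 CPM, Tnfrsf9 (4-1BB) at 408 and 146 CPM and Tnfrsf4 (OX40) at 387 and 269 CPM. The share of T cells with a Tnfrsf4 UMI went the other way, from 31.2% at day 6 to 53.2% in the deeper cells of day 10. It went from 46.8% to 35.9% for Tnfrsf9 and from 76.6% to 74.65% for Il2rb. Of 19 memory and trafficking genes 10 were above and 9 below 0 (median 0.06), with Ly6c2 at 774 and 675 CPM and Satb1, a chromatin organiser, at 253 and 125 CPM. Of 30 proliferation genes 20 were below 0 (median -0.18), with H2afz at 1664 and 1234 CPM and Hmgb2 at 962 and 1219 CPM. Of 17 regulatory T cell genes 15 were below 0 (median -0.63). Areg, the highest of them, stood at 562 and 431 CPM, with 42.7% of its day 6 counts in 1 cell. The share of T cells with an Areg UMI was 27.3% at day 6 and 33.4% at day 10. Foxp3, the defining factor of regulatory T cells, had 13 counts in 6 of 77 cells at day 6. At day 10 Foxp3 had 10 counts in 7 of 359 cells.

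The share of CD8 among CD8 and CD4 transcripts had overlapping intervals in the 2 tumours. Cd8a and Cd8b1 were 67.0% of the 103 counts of Cd8a, Cd8b1 and Cd4 at day 6 (exact 95% interval 57.0% to 75.9%) and 60.7% of 590 at day 10 (56.6% to 64.6%). Day 10 tumour 1, with 12 such counts, had 75% (42.8% to 94.5%). With 1 tumour per day there is no test. A Cd4 UMI was found in 23.4% of T cells at day 6 and 37.05% at day 10, against 0.626% and 12.4% of myeloid cells.

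Receptor segments were counted in tumour 3 of each day, from different mice, with no test of a difference. Among 32 Trbv counts of day 6 the leading segments were Trbv19 and Trbv13-2 (18.8% each, exact 95% interval 7.21% to 36.4%) and Trbv3 (15.6%, 5.28% to 32.8%). Among 258 Trbv counts of day 10 Trbv19 took 32.2% (26.5% to 38.2%), Trbv13-2 5.81% (3.29% to 9.41%) and Trbv3 1.16% (0.240% to 3.36%). The intervals of the 2 days overlapped for Trbv19 and Trbv13-2 and not for Trbv3. The segments were chosen by their largest share in either tumour, and the intervals count UMIs, not cells. The number of cells behind the 5 Trbv3 UMIs of day 6 was not counted, so the gap is not read as a difference. Of the 3 Trav segments of largest share, Trav13-1 took 12.5% of 16 counts (1.55% to 38.3%) and 29.8% of 57 (18.4% to 43.4%), which overlap. Gamma-delta receptor transcripts were present at both days: Trdc had 19 counts in 6 of 77 cells at day 6 and 13 counts in 7 of 359 at day 10, and Trdv4 held 9 of 10 Trdv counts at day 6 and 0 of 3 at day 10. NK markers, all 10 detected at day 6 and 9 of 10 at day 10 with Klra8 at 0, summed to 823 and 304 CPM in the T cell class. Their part in the values of Gzmb, Xcl1 and Klra1 was not tested.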

How the data were processed

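The authors deposited raw gene and hashtag UMI counts per barcode (10x Genomics 5′ kit), per the file headers, and a table that ties hashtags to line, day, mouse and cage. The submitters' processing notes name Cell Ranger 6.0.0 and mm10; the annotation is not given in the sources used here. Counts were used as deposited. The members and gene lists were chosen with earlier results of these data known. Counts were summed per tumour and class, with at least 20 cells, and fitted with a mean per line and day over the tumours of all 5 lines (36 for T cells, 37 for myeloid cells, 40 for immune cells other than T cells), with residual degrees of freedom of 19, 20 and 23. The test was edgeR 4.0.16 (TMM, filterByExpr, quasi-likelihood), with Benjamini-Hochberg adjustment over all genes tested at 0.05. DESeq2 1.42.0 was an alternative. The scripts were tested on simulated data. Fold changes are log2, day 10 minus day 6, with SE. The spread between tumours behind the edgeR p-values came only from other lines in T cells and myeloid cells. In immune cells other than T cells it came mostly from other lines. Shares were compared by two-sided exact permutation over tumours; intervals are exact 95% (Clopper-Pearson or Poisson). A count of 0 allows 3 counts. Doublets were kept and, as an alternative, removed with Scrublet (scanpy 1.11.5). Named genes had an adjusted p of at most 0.05, a mean log2 CPM of at least 5 and no overlap between the SCC31 tumours of the days. Up to 12 per class and direction were taken by size, without ribosomal, mitochondrial, receptor, Gm, Rik and cell-rule genes. With 1 SCC31 tumour per day, the overlap condition could not select among myeloid genes. Lists are given with their called members, or those of highest CPM. Promoter sequences came from RefSeq.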

Additional observations from a re-analysis of the deposited data

How the results depend on the processing

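T cells and myeloid cells had 1 SCC31 tumour per day, so neither can show variation between SCC31 tumours; fits without the mix library, on SCC31 alone, without a replicate, or on CD8 or CD4 cells alone were not run. Numbers of genes called moved as follows. In T cells (0) they became 14 with no filter on low counts and 1 with a stricter class rule. In myeloid cells (56) they became 192 with no filter, 98 with library as a term, 86 with hashtags at 4 times the next, 99 without Scrublet calls and 0 without cells that met both class rules. The tests against other lines (0 each) gave 8 in T cells and 67 in myeloid cells with no filter. In immune cells other than T cells (34) they became 60 with DESeq2, 154 with no filter, 4 without the mix library, 0 of 1129 genes tested with SCC31 alone (edgeR; 38 at an unadjusted p under 0.05), 52 with library as a term, and 5 to 196 when a tumour was left out. In immune cells other than T cells, DESeq2 gave no adjusted p for 7976 of the 10274 genes. The cause of the moves was not tested.

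The replicate numbers name different mice and do not pair the days. With a replicate block 172 genes were called in myeloid cells, including all 56, 128 in immune cells other than T cells, including 33 of the 34, and 0 in T cells.

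The difference in T cell share stayed above 0 in every alternative run, and that in immune cells turned to -9.82 percentage points without day 10 tumour 3 (range when a tumour was left out -9.82 to 32.7). Directions also turned, with log2 values near 0, for Nkg7 (-0.075 with hashtags at 4 times the next, -0.051 without cells that met both rules, -0.20 with the stricter rule), Ccl5 (-0.11 and -0.0084 with the first 2 of these) and Areg (0.20 with the stricter rule) in T cells, and for Gbp5 in immune cells other than T cells (0.063 without the mix library).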
